A study of Mus musculus with 18 samples.

Results

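RNA polymerase II (Pol II) and CTCF occupancy were measured by ChIP-seq of mouse ventricles at the genes of 10 cleavage, polyadenylation and termination factors: *Cpsf1*, *Cpsf2*, *Cpsf3*, *Cpsf4*, *Nudt21*, *Cpsf6*, *Cpsf7*, *Cstf2*, *Pcf11* and *Xrn2*. A peak belonged to a factor when the gene symbol given with it in the deposited annotation was 1 of these 10. Of 101256 regions, which merge the peaks of all libraries and are called union peaks here, 38260 were annotated to a promoter and 16 carried such a symbol. No difference between genotypes at these peaks passed the test when all libraries of a target were fitted together. Pol II occupied the promoters of 7 factors strongly, a weaker peak lay in intron 1 of *Xrn2*, and the peaks over the starts of *Cpsf3* and *Cpsf4* carried the names of their divergent neighbours.

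These factors end transcripts made by Pol II. The cleavage and polyadenylation specificity factor (CPSF) recognizes the polyadenylation signal and cuts the RNA, mammalian cleavage factor I selects among polyadenylation sites, the cleavage stimulation factor binds downstream of the cut, and the polymerase is released with the help of PCF11 and of the exonuclease XRN2, which degrades the RNA still attached to it. The study asked how transcription ends at the *triadin* locus and how the m6A methylase METTL3 takes part, which makes the genes of this machinery a place to compare its genotypes. The assay measured polymerase on these genes, not their RNA or protein.

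There were 2 Pol II and 2 CTCF libraries and 1 IgG library for each of the 3 genotypes, made from snap-frozen ventricles of 2 adult hearts, and nothing in the labels says that libraries came from separate animals, so the p-values measure only the spread between these libraries. WT animals were the controls. *Trdn-as* KO animals carried a polyadenylation site inserted into the first exon of the antisense RNA *Trdn-as* on both alleles, derived from embryonic stem cell clones and backcrossed to C57BL/6. *Mettl3* KO animals were Mettl3lox/lox:alphaMHC-MerCreMerpos, so that tamoxifen deleted *Mettl3* in cardiomyocytes while the other cells of the heart kept it. The labels name the controls only WT, while the methods name Mettl3 lox/lox animals, also given tamoxifen, as controls of this line. Every value below is the reads of a peak divided by a library factor, rounded, unless it is given as reads, as RPM, which is scaled to the uniquely mapped reads of the library, or per kb of peak.

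The Pol II libraries held between 1987714 and 4953680 reads in union peaks. These were 35.5% to 42.6% of the uniquely mapped reads in 5 libraries and 18.6% in *Trdn-as* KO library 2. The *Trdn-as* promoter peak had values of 530 to 595 (WT), 100 to 140 (*Trdn-as* KO) and 491 to 503 (*Mettl3* KO). At the *Mettl3* promoter, which need not lie in the deleted part, the values were 177 to 202 (WT) against 235 to 240 (*Mettl3* KO). All 6 cardiomyocyte markers had a peak, with summed values of 23586 to 25281 (WT), 18427 to 23921 (*Trdn-as* KO) and 24394 to 24662 (*Mettl3* KO). The 4 fibroblast markers summed to 564 to 580, 564 to 838 and 1169 to 1189. Of 4 endothelial markers, 3 had a peak, *Pecam1* had none, and the sums were 636 to 710, 589 to 842 and 724 to 746. Of 4 leukocyte markers, 3 had a peak, *Csf1r* had none, and the sums were 140 to 151, 113 to 130 and 110 to 141. The 6 union peaks of the Y chromosome summed to 279 to 326 (WT) against 223 to 239 (*Mettl3* KO) and were at 0 in both *Trdn-as* KO libraries, and sex was not part of the study design. Genotype and sex therefore cannot be told apart in any comparison of *Trdn-as* KO. In whole ventricle, fewer cells of a type and less polymerase per cell cannot be told apart.

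The promoter sequences are given for their base composition and because those of 2 of the genes overlap with the promoter of a neighbour. RefSeq promoters (GRCm38.p6, 250 bases before to 50 after the start) were found for 9 of the 10 genes, all but *Cpsf1*. Their GC content was 54.0% to 67.3%, with a median of 63.7% against 52.7% over 27025 promoters, and they held a median of 29 CG dinucleotides against 7. None held TATAAA, which 14.2% of all promoters hold on either strand. CCGGAAG was in *Cpsf3*, *Nudt21*, *Cpsf7* and *Xrn2* and in 9.12% of all promoters, and GGGCGG was in *Cpsf4*, *Cpsf6*, *Cpsf7*, *Cstf2* and *Pcf11* and in 35.9%. CCAAT was in *Nudt21* and *Pcf11* (37.9% of all promoters), CACGTG in *Xrn2* alone (7.24%), CCCTC in 7 of the 9 (65.0%) and GCGCATGC in none (2.81%). A match is only a description of the letters. Shown are *Pcf11*, which had the most Pol II, *Xrn2*, which had no peak over its start, and *Cpsf4* and *Cpsf3*, which share their promoters with a neighbour. Capitals mark these motifs on either strand.
Pcf11 (chr7:92669863-92670162, minus strand): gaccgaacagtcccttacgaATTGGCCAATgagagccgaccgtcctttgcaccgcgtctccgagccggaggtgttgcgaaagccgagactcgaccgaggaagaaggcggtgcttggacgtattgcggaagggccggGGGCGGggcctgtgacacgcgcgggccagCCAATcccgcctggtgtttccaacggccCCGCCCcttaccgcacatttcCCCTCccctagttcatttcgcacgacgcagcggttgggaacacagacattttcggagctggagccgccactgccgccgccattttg
Xrn2 (chr2:147012749-147013048, plus strand): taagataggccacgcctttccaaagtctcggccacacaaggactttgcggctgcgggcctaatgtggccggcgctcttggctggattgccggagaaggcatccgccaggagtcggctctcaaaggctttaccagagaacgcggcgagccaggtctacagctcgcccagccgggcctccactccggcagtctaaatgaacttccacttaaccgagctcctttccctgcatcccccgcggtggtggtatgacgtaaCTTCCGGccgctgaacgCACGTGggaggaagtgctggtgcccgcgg
Cpsf4 (chr5:145166963-145167262, plus strand): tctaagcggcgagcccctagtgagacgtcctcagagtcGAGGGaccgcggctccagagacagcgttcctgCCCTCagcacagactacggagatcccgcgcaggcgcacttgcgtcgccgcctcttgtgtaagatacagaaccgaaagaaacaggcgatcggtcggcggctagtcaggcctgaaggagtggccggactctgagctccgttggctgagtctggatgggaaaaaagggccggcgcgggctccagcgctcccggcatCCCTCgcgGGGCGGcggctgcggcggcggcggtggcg
Cpsf3 (chr12:21286047-21286346, plus strand): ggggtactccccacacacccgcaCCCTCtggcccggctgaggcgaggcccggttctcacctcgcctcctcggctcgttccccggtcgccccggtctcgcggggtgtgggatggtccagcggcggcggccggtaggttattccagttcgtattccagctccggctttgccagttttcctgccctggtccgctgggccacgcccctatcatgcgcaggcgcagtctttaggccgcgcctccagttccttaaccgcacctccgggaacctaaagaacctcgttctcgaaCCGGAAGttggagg
The windows of *Cpsf4* and *Ptcd1*, on opposite strands, overlapped by 208 bases. Those of *Cpsf3* and *Itgb1bp1* overlapped by 112 bases with starts 13 bases apart.

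Pol II at the promoters was compared per kb of peak, since the peaks differ in length. In WT, *Pcf11*, the scaffold of cleavage factor II, had the highest level, 296 ± 10.5 per kb (SD, n = 2). *Cpsf6*, a larger subunit of mammalian cleavage factor I, followed with 246 ± 3.12. *Cpsf7*, the alternative larger subunit, had 225 ± 12.3, *Cpsf2*, a CPSF subunit that pairs with the endonuclease, 202 ± 15.6, and *Nudt21*, the small subunit of mammalian cleavage factor I that binds the RNA, 195 ± 8.12. *Cstf2*, the RNA-binding subunit of the cleavage stimulation factor, had 155 ± 8.05, and *Cpsf1*, the largest subunit of CPSF, 88.6 ± 11.4. *Xrn2* lay at 156 ± 50.2 in a peak of 324 nt. The WT libraries of *Pcf11* lay above those of *Cpsf6*, those of *Cpsf6* above those of *Cpsf7*, those of *Cpsf7* above those of *Cpsf2*, and those of *Nudt21* above those of *Cstf2* and *Cpsf1*. Those of *Cpsf2* and *Nudt21* overlapped, and those of *Xrn2* overlapped with both *Nudt21* and *Cstf2*. The share of all promoter-annotated peaks with a lower mean Pol II value, not taken per kb, was 98.5% for *Pcf11*, 95.6% for *Cpsf6*, 95.4% for *Cpsf7*, 90.9% for *Cpsf2*, 84.3% for *Nudt21*, 76.7% for *Cstf2*, 75.5% for *Cpsf1* and 65.0% for *Xrn2*.

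The catalytic and the zinc finger subunit of CPSF had no strong peak under their own names. The peak named for *Cpsf4*, the zinc finger subunit (chromosome 5, 145104526 to 145104752 in GRCm39, 503 to 729 nt after the start), had Pol II values of 10 and 5 (WT), 5 and 6 (*Trdn-as* KO) and 4 and 3 (*Mettl3* KO), at most 7.34 reads. The annotated start of *Cpsf4* lay in the neighbouring peak from 145103287 to 145104471, which is assigned to *Ptcd1*. That peak had 276 and 254 (WT), 316 and 250 (*Trdn-as* KO) and 347 and 331 (*Mettl3* KO), or 224 ± 13.1 per kb in WT. For *Cpsf3*, the endonuclease (its own peak on chromosome 12, 21334795 to 21335116, −597 to −276 nt from the start), the values were 1 and 1 (WT), 2 and 4 (*Trdn-as* KO) and 4 and 0 (*Mettl3* KO). The peak assigned to *Itgb1bp1*, from 21335518 to 21336854, covers 126 to 1462 nt after the start of the *Cpsf3* gene. In GENCODE M21 (GRCm38), where the gene has the same length of 29666 nt, both basic coding transcripts of *Cpsf3* start 967 and 1008 nt into it, which is inside that peak by distance. Its Pol II values were 246 and 294 (WT), 243 and 163 (*Trdn-as* KO) and 311 and 278 (*Mettl3* KO). Pol II on the 2 strands of such a peak cannot be told apart in these values, so neither gene can be given a level of its own.

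**Figure D1:**
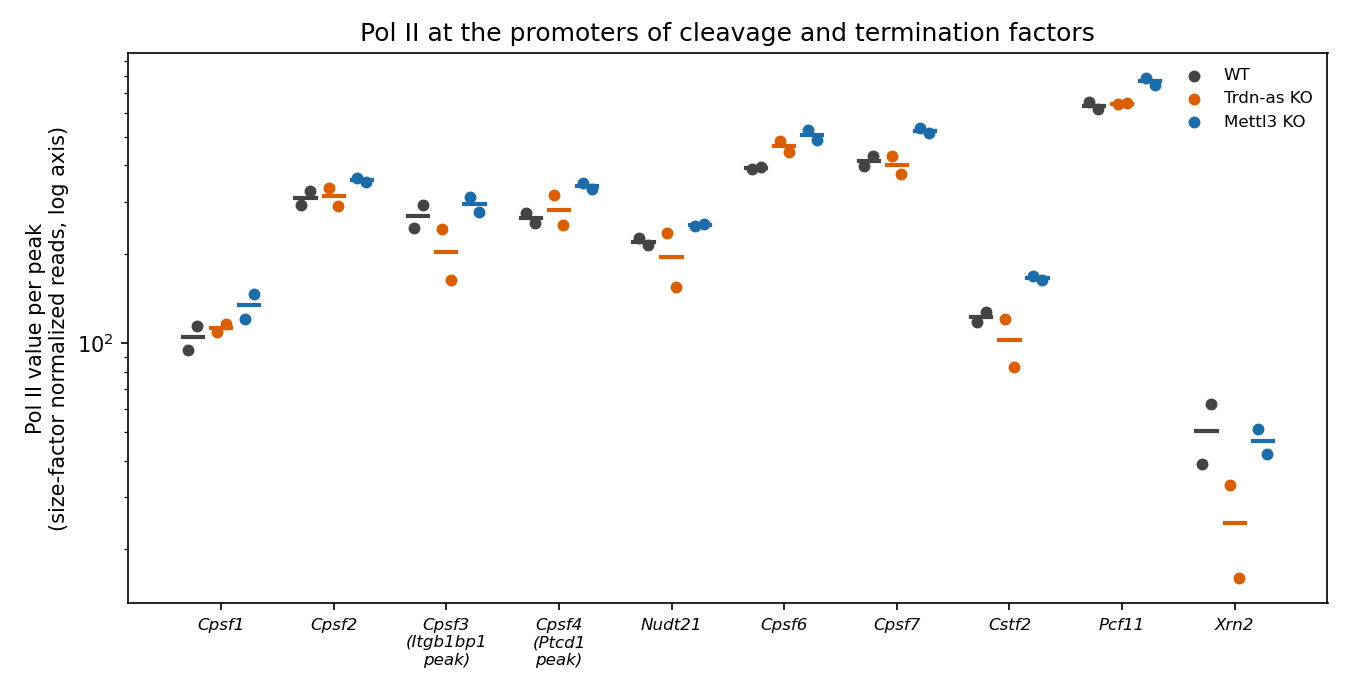
Pol II value of the leading promoter peak of each factor in each library (log axis, normalized reads per peak), with bars at the mean of 2 libraries per genotype; for *Cpsf3* and *Cpsf4* the peak named for the neighbour is drawn. Values run from 16 at *Xrn2* to 789 at *Pcf11*, and *Mettl3* KO libraries lie above both WT libraries at 7 of the 8 peaks that carry the factor's own name. The same held for 31.2% of all peaks tested and for 76.1% of the promoter peaks with a mean of at least 100.

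*Cpsf6* and *Xrn2* had their peaks away from the gene start given in the file. The *Cpsf6* peak (chromosome 10, 117211724 to 117213311) lay 2609 to 4196 nt after it, and the 4 basic coding transcripts of *Cpsf6* in GENCODE M21 start 3042 to 3087 nt into a gene of equal length, inside the peak by distance. No union peak covered the start of *Xrn2*. Its peaks lay on chromosome 2 from 146855429 to 146855752 and from 146855822 to 146855971, 513 to 836 and 906 to 1055 nt after the start, both between exon 1, which ends at 200 nt, and exon 2, which begins at 11512 nt in GENCODE M21. The values of the smaller one were 5 and 22 (WT), 8 and 14 (*Trdn-as* KO) and 15 and 19 (*Mettl3* KO).

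Pol II exceeded the IgG background at these promoters. In RPM, at the 7 promoters with a mean value of at least 100, Pol II was 10.7 to 22.5 times the IgG value in WT, 6.92 to 16.1 times in *Trdn-as* KO and 7.27 to 20.2 times in *Mettl3* KO. The median ratio over the promoter-annotated peaks of that strength was 15.1, 9.30 and 13.2. At *Pcf11*, Pol II had 55.6 RPM and IgG 2.47 RPM in WT, 38.1 and 2.46 (*Trdn-as* KO) and 60.9 and 5.57 (*Mettl3* KO). *Xrn2* had 4.45 RPM against 0.237 in WT, 1.56 against 0.376 in *Trdn-as* KO and 3.68 against 0.260 in *Mettl3* KO. The ratios rest on few IgG reads, 9.03 to 40.8 at these 7 peaks in WT, 3.05 to 16.0 in *Trdn-as* KO and 6.95 to 41.9 in *Mettl3* KO, so no order among the factors is given. With 1 IgG library per genotype these ratios have no test, and the lower values of *Trdn-as* KO on this scale stand beside the lower share of reads in peaks of its library 2.

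The comparison of *Trdn-as* KO with WT asks whether early termination of the antisense RNA goes along with altered polymerase at the termination factors. None of the 12 peaks tested passed (limma, adjusted p 0.33 to 1.0), and 0.304% of all 52655 peaks tested were called. At an unadjusted p under 0.05 were 2 of the 12, and 7.7% of all peaks. The leading peaks of 4 factors were higher and those of 4 lower, with a median log2 fold change of −0.02 against −0.07 over all peaks tested. Scaled to uniquely mapped reads, all 8 were lower, with medians of −0.61 and −0.65, and under the other scalings 4 or 5 were higher. Fold changes are on the scale of log2(value + 1), which understates changes of low values. *Pcf11* (chromosome 7, 92317632 to 92319783) had 652 and 620 (WT) against 642 and 647 (*Trdn-as* KO), a log2 fold change of 0.02 (95% interval −0.27 to 0.31). *Cpsf6* had 387 and 394 (WT) against 484 and 444 (*Trdn-as* KO), 0.25 (−0.07 to 0.57). It was the 1 leading peak where both knockout libraries lay above both WT libraries, as 12.9% of all peaks tested and 9.21% of the promoter peaks with a mean of at least 100 did.

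Among the leading peaks, *Xrn2* had the fold change farthest from 0. Its values were 39 and 62 (WT) against 33 and 16 (*Trdn-as* KO), so both knockout libraries lay below both WT libraries, as 19.1% of all peaks tested and 12.3% of the promoter peaks with a mean of at least 100 did. The log2 fold change was −1.06 ± 0.36 (SE, 95% interval −1.78 to −0.34, adjusted p = 0.33). These values stand for 7.86 to 65.6 reads over the 6 libraries, and the lowest is that of *Trdn-as* KO library 2. Without *Trdn-as* KO library 1, which leaves that library alone, the log2 fold change was −1.56 with an adjusted p of 0.039, and 4.3% of all peaks tested were then called. Without *Trdn-as* KO library 2 it was −0.56 with an adjusted p of 0.67, and 0.0882% of all peaks were called. The smaller *Xrn2* peak in the same intron overlapped between these genotypes, −0.02 (−1.20 to 1.16). With the peaks of the gene summed, the log2 fold change of *Xrn2* was −0.78 (limma, adjusted p = 0.62). The *Itgb1bp1* peak at *Cpsf3* also had a negative fold change, with 246 and 294 (WT) against 243 and 163 (*Trdn-as* KO), −0.43 (−0.82 to −0.04, adjusted p = 0.59). *Nudt21* (chromosome 8, 94763147 to 94764278) had 227 and 214 (WT) against 236 and 155 (*Trdn-as* KO), and *Cstf2* (chromosome X, 132959615 to 132960405) had 118 and 127 against 121 and 83. In both, the groups overlapped and *Trdn-as* KO library 2 was the lowest of all 6. *Cpsf7* had 398 and 430 against 431 and 373, *Cpsf2* 293 and 327 against 336 and 291, and *Cpsf1* 95 and 114 against 109 and 116, all overlapping. The part of the share of reads in peaks in these values was not tested, and genotype and sex cannot be told apart in them.

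In *Mettl3* KO hearts, where the m6A methylase gene was deleted in cardiomyocytes, Pol II values were higher than in WT at most factor promoters, as they were at most strong promoters. None of the 12 peaks passed the test (adjusted p 0.18 to 0.93), and 1.19% of all peaks tested were called. An unadjusted p under 0.05 was found for 3 of them and for 15.5% of all peaks. Both knockout libraries lay above both WT libraries at *Cpsf1*, *Cpsf2*, *Nudt21*, *Cpsf6*, *Cpsf7*, *Cstf2* and *Pcf11*, 7 of the 8 leading peaks tested and all 7 with a mean of at least 100. The same held for 31.2% of all peaks tested and for 76.1% of the 9993 promoter peaks of that strength, of which 1.23% were called higher. The median log2 fold change of the 8 leading peaks was 0.30, against 0.08 over all peaks and 0.27 over those promoter peaks.

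Among the subunits of mammalian cleavage factor I, *Cpsf6* had 387 and 394 (WT) against 528 and 487 (*Mettl3* KO), 0.38 ± 0.16 (SE, 95% interval 0.06 to 0.70, adjusted p = 0.24). *Cpsf7* (chromosome 19, 10502075 to 10503915) had 398 and 430 (WT) against 534 and 512 (*Mettl3* KO), 0.34 ± 0.16 (0.01 to 0.66, adjusted p = 0.30). *Nudt21* had 227 and 214 (WT) against 249 and 253 (*Mettl3* KO), 0.19 (−0.22 to 0.59). All 3 lay above WT in both libraries, and only the first 2 intervals lay above 0. *Cstf2* had 118 and 127 (WT) against 168 and 163 (*Mettl3* KO), 0.43 (−0.04 to 0.90), the highest fold of the 8. *Pcf11* had 652 and 620 against 789 and 747, 0.27 (−0.01 to 0.56).

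Within CPSF, *Cpsf2* (chromosome 12, 101941343 to 101942879) had 293 and 327 (WT) against 362 and 351 (*Mettl3* KO), 0.20 (−0.15 to 0.55). *Cpsf1* (chromosome 15, 76491249 to 76492428) had 95 and 114 against 121 and 147, 0.35 (−0.12 to 0.83). The shared *Cpsf4* peak had 276 and 254 against 347 and 331, 0.35 (−0.01 to 0.72), and the shared *Cpsf3* peak overlapped between the genotypes, 0.13 (−0.26 to 0.52). *Xrn2*, with 39 and 62 (WT) against 51 and 42 (*Mettl3* KO), overlapped as well, −0.09 (−0.81 to 0.63). When *Trdn-as* KO libraries were kept out of the fit, *Cpsf6* (adjusted p = 0.016), *Cpsf7* (0.022) and *Pcf11* (0.022) passed, with 10.3% of all peaks called. The same 3 passed without *Trdn-as* KO library 1 (adjusted p 0.013 to 0.020, 9.71% of all peaks called) or library 2 (0.014 to 0.021, 9.97% called), with equal fold changes in each of these fits. When the libraries were scaled so that strong promoter peaks centred on 0, 5 of the 8 log2 fold changes were above 0 and 3 below, with 0.16 for *Cstf2*, 0.11 for *Cpsf6*, 0.09 for *Cpsf1*, 0.07 for *Cpsf7*, 0.00 for *Pcf11*, −0.07 for *Cpsf2*, −0.08 for *Nudt21* and −0.35 for *Xrn2*. The fibroblast and endothelial marker sums were also higher in both *Mettl3* KO libraries than in both WT libraries, and their part in these values was not tested.

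**Figure D2:**
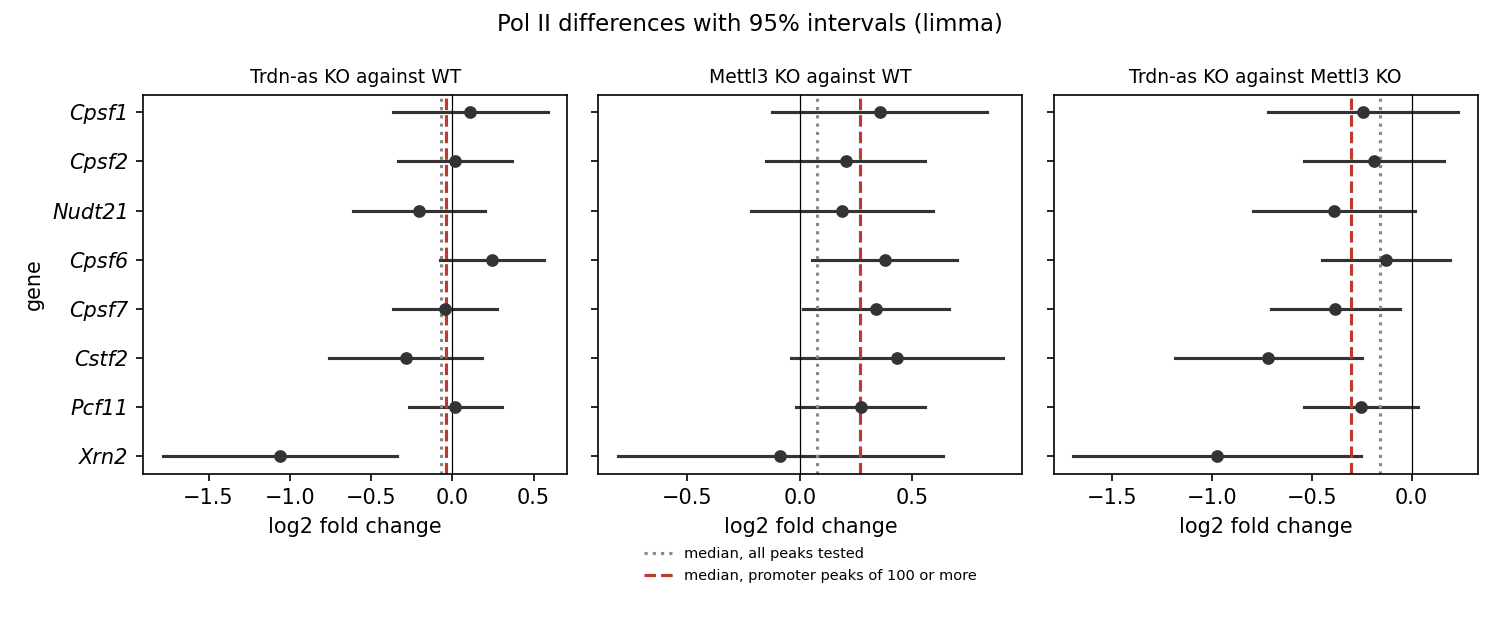
Log2 fold change of Pol II at the 8 leading peaks tested (dots) with 95% intervals from limma, one panel per comparison, beside the median over all peaks tested (dotted) and over promoter peaks with a mean of at least 100 (dashed). In *Mettl3* KO against WT the dots gather around the dashed line at 0.27, and *Xrn2* has the lowest dot in both comparisons of *Trdn-as* KO, followed by *Cstf2*.

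Against *Mettl3* KO, *Trdn-as* KO had lower Pol II at all 8 leading peaks tested, in both libraries against both, which 29.9% of all peaks tested and 64.4% of the promoter peaks with a mean of at least 100 also had. No peak passed (adjusted p 0.097 to 0.83), and 1.5% of all peaks were called. Of the 12, 4 had an unadjusted p under 0.05, as did 17.9% of all peaks. The median log2 fold change was −0.32, against −0.30 over the strong promoter peaks. Scaled so that strong promoter peaks centred on 0, 4 of the 8 were higher, *Cpsf1* (0.06), *Cpsf2* (0.11), *Cpsf6* (0.17) and *Pcf11* (0.05), and under the median of ratios within the target *Cpsf6* was (0.04). *Cstf2* came closest, with 121 and 83 (*Trdn-as* KO) and 168 and 163 (*Mettl3* KO), −0.72 ± 0.24 (SE, 95% interval −1.19 to −0.25, adjusted p = 0.097). *Cstf2* is X-linked. The Y chromosome sums above separate *Trdn-as* KO from both other genotypes, so genotype and sex cannot be told apart here, at *Cstf2* or any other factor. *Xrn2* had −0.98 (−1.70 to −0.25, adjusted p = 0.14) and *Cpsf7* −0.38 (−0.71 to −0.06, adjusted p = 0.20). Without *Trdn-as* KO library 1, *Nudt21*, *Cpsf7*, *Cstf2*, *Pcf11* and *Xrn2* passed with log2 fold changes of −0.69, −0.49, −0.99, −0.25 and −1.48, in a fit that rests on library 2 for *Trdn-as* KO and called 19.3% of all peaks. Without library 2 none of these 5 passed (adjusted p 0.19 to 0.80, 0.311% of all peaks called), and the log2 fold changes were −0.09, −0.28, −0.45, −0.26 and −0.48.

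*Pcf11* is known for a polyadenylation site in its first intron, through which the gene limits its own full-length RNA, and 3 further Pol II peaks carried its name there. They lay 2278 to 2688, 2902 to 3471 and 3555 to 3795 nt after the start (chromosome 7, 92315347 to 92316864), between exon 1, which ends at 505 nt, and exon 2, which begins at 4069 nt in GENCODE M21. Short annotated *Pcf11* transcripts end 713 and 1750 nt after the start. The nearest of the 3 peaks had 15 and 29 (WT), 16 and 18 (*Trdn-as* KO) and 10 and 5 (*Mettl3* KO), a log2 fold change of −1.43 (−2.52 to −0.35, adjusted p = 0.18) for *Mettl3* KO against WT. The middle one had 35 and 48 (WT), 30 and 20 (*Trdn-as* KO) and 31 and 30 (*Mettl3* KO). The farthest had 20 and 15 (WT), 3 and 10 (*Trdn-as* KO) and 11 and 5 (*Mettl3* KO), with −1.47 (−2.86 to −0.07, adjusted p = 0.63) for *Trdn-as* KO against WT. At the middle and the farthest peak both knockouts lay below both WT libraries, and at the nearest one *Trdn-as* KO overlapped with WT. Of all peaks tested, 19.1% had both *Trdn-as* KO libraries and 19.5% both *Mettl3* KO libraries below both WT libraries.

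Summed over the 3 peaks, the intron held 10.7% and 14.8% of the promoter value in WT, 7.63% and 7.42% (*Trdn-as* KO) and 6.59% and 5.35% (*Mettl3* KO). Both knockouts lay below both WT libraries, with means of 12.8% ± 2.90 in WT, 7.53% ± 0.151 in *Trdn-as* KO and 5.97% ± 0.874 in *Mettl3* KO (SD, n = 2). The two-sided exact permutation test gave p = 0.33 for each knockout, the smallest that 2 against 2 libraries allow. This share was chosen after its values were seen. Over 1512 genes with a promoter peak of at least 100 and further peaks downstream summing to at least 20 on average, 25.6% had both *Trdn-as* KO libraries below both WT libraries and 52.4% had both *Mettl3* KO libraries below them. The sums stood for 23.6 to 97.4 reads, and were 5.91 and 8.33 RPM in WT, where IgG had 0.498 RPM. They were 3.54 and 2.21 RPM in *Trdn-as* KO against 0.578 for IgG, and 3.95 and 3.32 in *Mettl3* KO against 0.260.

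**Figure D3:**
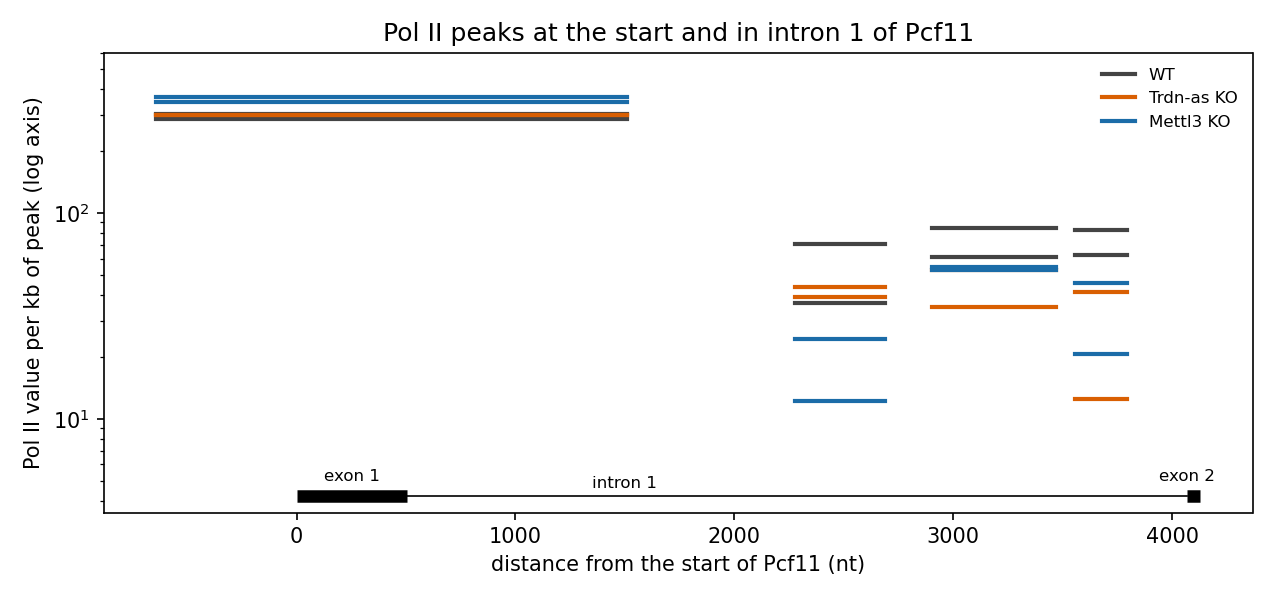
Pol II value per kb (log axis) of the 4 *Pcf11* peaks against distance from the gene start in nt, each line a library drawn over the width of the peak, with exons 1 and 2 and intron 1 below. The promoter peak lies between 288 and 367 per kb in all libraries, and a WT library holds the highest line over each of the 3 intron peaks.

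CTCF binds DNA at insulators and many promoters and served as positive control in the study. Its values at these promoters were highest at *Cpsf7* and *Cpsf1*, the 2 leading peaks where all 6 CTCF libraries lay above all 3 IgG libraries on the deposited scale. *Cpsf7* had 148 and 148 (WT), 152 and 161 (*Trdn-as* KO) and 134 and 134 (*Mettl3* KO), above 95.7% of the promoter-annotated peaks. *Cpsf1* had 130 and 119 (WT), 134 and 138 (*Trdn-as* KO) and 123 and 133 (*Mettl3* KO), above 94.2%. At *Cpsf1* the mean CTCF value per kb was 110, against 99.2 for Pol II, the only leading peak of the 7 strong ones where CTCF was the higher of the pair on the deposited scale. The CTCF means per kb were 79.4 at *Cpsf7*, 50.7 at *Pcf11*, 46.4 at *Cpsf2*, 43.8 at *Cpsf6*, 43.3 at *Nudt21*, 39.4 at *Cstf2* and 37.6 at *Xrn2*. Per peak, without regard to length, *Pcf11* followed *Cpsf1* with 98 to 127, then *Cpsf2* with 63 to 80, *Cpsf6* with 63 to 81, *Nudt21* with 42 to 52 and *Cstf2* with 26 to 40. *Xrn2* had 9 to 14. IgG values on this scale are inflated, as 1 IgG read counts for 2.55 to 6.56, and were 33 to 51 at *Cpsf1* and 78 to 105 at *Cpsf7*. At the other leading peaks they overlapped with CTCF, with 85 to 193 at *Pcf11*, 46 to 69 at *Cpsf2*, 69 to 85 at *Cpsf6*, 26 to 59 at *Nudt21*, 20 to 32 at *Cstf2* and 9 to 13 at *Xrn2*, so CTCF above background was not shown there.

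No CTCF difference at the factors passed the test in limma. Of 10 peaks tested, 0 were called in each comparison, where 0.587% of 60649 peaks were called for *Trdn-as* KO against WT, 0.185% for *Mettl3* KO against WT and 1.37% for *Trdn-as* KO against *Mettl3* KO. At an unadjusted p under 0.05 the counts were 1, 0 and 1, against 10.2%, 15.7% and 18.8% of all peaks. They were *Cpsf2* in *Trdn-as* KO against WT, with 80 and 77 (WT) against 68 and 63 in the knockout, −0.26 (−0.50 to −0.01, adjusted p = 0.47), and *Cpsf7* in *Trdn-as* KO against *Mettl3* KO, 0.22 (0.04 to 0.40, adjusted p = 0.18). Median log2 fold changes of the tested peaks were −0.04, −0.15 and 0.12, against 0.04, −0.06 and 0.09 over all peaks.

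Inside the gene bodies, 10 union peaks annotated to no gene lay in 7 of the genes, and 2 of them had a mean CTCF value of at least 10. A CTCF peak with little Pol II lay 16249 to 17205 nt into *Cpsf6* (chromosome 10, 117198715 to 117199671), over exon 4 by distance. It had CTCF values of 67 and 63 (WT), 74 and 85 (*Trdn-as* KO) and 63 and 58 (*Mettl3* KO), with Pol II values of 4 to 14 and IgG values of 5 to 28. *Trdn-as* KO lay above both other genotypes there, as it did above WT at 19.4% and above *Mettl3* KO at 34.7% of all CTCF peaks tested, with 0.39 (0.13 to 0.64, adjusted p = 0.12) against *Mettl3* KO. Another lay 9017 to 9561 nt into *Cpsf2* (chromosome 12, 101951264 to 101951808), over exon 5, with CTCF values of 28 to 39, Pol II of 0 to 3 and IgG of 18 to 23. A single unnamed peak in the bodies had a mean Pol II value of at least 10, in intron 9 of *Pcf11* with 12.3. Within 5000 nt after the 3′ ends, the 5 union peaks were annotated to other genes, so no peak could be assigned to polymerase reading past the end of a factor gene.

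The rest of the pathway was compared by a list of 20 further genes of cleavage, polyadenylation and termination, all of which had a tested peak. None was called in any of the 3 comparisons. In *Trdn-as* KO against WT, 3 were higher and 17 lower. Their median log2 fold change was −0.10, against −0.07 over all peaks tested and −0.04 over the strong promoter peaks. The other scalings gave 0 to 7 higher. *Sympk*, the scaffold that holds CPSF together with the cleavage stimulation factor, had 0.22, *Fip1l1*, a CPSF subunit that recruits poly(A) polymerase, 0.09, and *Zc3h4*, a restrictor of noncoding transcription, 0.04. *Cstf2t*, an autosomal retrocopy of *Cstf2*, had −0.29, *Wdr82*, the partner of *Zc3h4*, −0.23, and *Cstf1*, a subunit of the cleavage stimulation factor, −0.22.

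In *Mettl3* KO against WT all 20 were higher, with a median of 0.25, and in *Trdn-as* KO against *Mettl3* KO all 20 were lower, with a median of −0.30. *Pabpn1*, which binds nascent poly(A) tails, had 0.43 and −0.47, and *Clp1*, the partner of *Pcf11* in cleavage factor II, 0.35 and −0.46. These medians lie near those of the strong promoter peaks, 0.27 and −0.30. Scaled so that those peaks centred on 0, 9 of the 20 were higher in the first of these comparisons, and 10 were lower in the second. Of 21 pausing and elongation factors, 20 had a tested peak, *Supt6* had none, and the medians were −0.08, 0.26 and −0.34. *Leo1*, a subunit of the PAF1 complex named here after its values were seen, was the 1 gene of these lists that was called. It had 50 and 72 (WT), 92 and 71 (*Trdn-as* KO) and 224 and 205 (*Mettl3* KO), and rose by a log2 fold change of 1.82 ± 0.25 (SE, adjusted p = 3.6e-06) in *Mettl3* KO against WT. *Trdn-as* KO against *Mettl3* KO was called too, at −1.40 (adjusted p = 0.00053). The rise was 1.55 to 1.72 under the other scalings. It did not pass when uniquely mapped reads set the scale (adjusted p = 0.31), nor without WT library 1 (0.18), *Mettl3* KO library 1 (0.15) or *Mettl3* KO library 2 (0.34).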

How the data were processed

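ChIP-seq reads were trimmed, aligned with STAR to GRCm39, freed of duplicates and counted with featureCounts in merged MACS peaks by the authors. The authors divided this signal by DESeq2 size factors and deposited it rounded. It is not read counts, so no count model was used. The spacing of low values gave the value of 1 read in Pol II and IgG libraries, but not in CTCF libraries, whose values are therefore given neither as reads nor as RPM. RPM rests on the study's own numbers of uniquely mapped reads.

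Tested were peaks that reached a value of 10 in 2 of the 6 libraries of a target, with limma 3.58.1 (R 4.3.3) on log2(value + 1), with a variance trend, a model of the 3 genotypes and Benjamini-Hochberg adjustment over all peaks tested, called below 0.05. On simulated data for Pol II in *Trdn-as* KO against WT, 93.5% of 200 peaks with a simulated log2 difference of 2 were recovered among 51661 peaks tested, with 8 false calls. Changes were simulated only at peaks above a minimum mean. Smaller differences, such as those at the factors, were not simulated, so their recovery is not known. All libraries had the same simulated spread, so the lower share of reads in peaks of *Trdn-as* KO library 2 was not part of it. Python 3.11.15, pandas 2.3.3, scipy 1.17.1 and matplotlib 3.10.9 did the rest. GRCm38 sequences and transcripts were matched by symbol and distance, never by GRCm39 coordinates.

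The genes and lists were chosen with earlier results of these data known. Named were the peak with the highest mean Pol II of each factor, the one with the highest mean CTCF, and up to 3 pathway genes per direction and comparison by fold change. One gene that this rule names is not reported here. Scaling, filter, pseudocount, genotypes fitted, replicate block, variance trend, gene sums and leaving out single libraries were varied. Depth limits small peaks, since a count of 0 allows up to 3 reads. The 3 input libraries were not analysed here.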

Additional observations from a re-analysis of the deposited data

How the results depend on the processing

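The number of factor peaks called was 0 for CTCF under every alternative run and 0 for Pol II under the other scalings, no filter, a pseudocount of 5, no variance trend, gene sums and a replicate block. It became 3 for *Mettl3* KO against WT with only the compared genotypes in the fit. Leaving out single Pol II libraries gave 0 to 1 for *Trdn-as* KO against WT, 0 to 3 for *Mettl3* KO against WT and 0 to 5 for *Trdn-as* KO against *Mettl3* KO. The spread between libraries is then estimated from fewer libraries.

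Directions of small differences depended on the scaling. With uniquely mapped reads as library size, *Trdn-as* KO against WT was −0.49 for *Cpsf1*, −0.58 for *Cpsf2*, −0.35 for *Cpsf6* and −0.58 for *Pcf11*, where the median of all peaks was −0.65. With the median of ratios within the target, *Cpsf7* was 0.027 in that comparison and *Cpsf6* was 0.043 in *Trdn-as* KO against *Mettl3* KO. With strong promoter peaks as reference, a scaling added after the data were seen, *Cpsf2* was −0.066 and *Nudt21* −0.082 in *Mettl3* KO against WT. In *Trdn-as* KO against *Mettl3* KO under it, *Cpsf1* was 0.057, *Cpsf2* 0.11, *Cpsf6* 0.17 and *Pcf11* 0.051. Gene sums gave −0.049 for *Pcf11* in *Trdn-as* KO and 0.0595 for *Xrn2* in *Mettl3* KO, both against WT. Leaving out single libraries, *Trdn-as* KO against WT ran from −0.020 to 0.24 for *Cpsf1*, −0.089 to 0.12 for *Cpsf2*, −0.51 to 0.10 for *Nudt21*, −0.15 to 0.059 for *Cpsf7* and −0.017 to 0.056 for *Pcf11*, and *Xrn2* in *Mettl3* KO against WT from −0.41 to 0.24.

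Calls over all Pol II peaks ranged from 4 to 2185 around 160 for *Trdn-as* KO against WT, from 0 to 4975 around 629 for *Mettl3* KO against WT, and from 11 to 9789 around 790 for *Trdn-as* KO against *Mettl3* KO. For CTCF they ranged from 1 to 503 around 356, from 0 to 665 around 112 and from 1 to 1192 around 828. Of the Pol II calls in *Mettl3* KO against WT, 1271 were higher and 1104 lower under the median of ratios within the target, and 372 and 2299 with strong promoter peaks as reference.

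Equal replicate numbers had correlated deviations of −0.01 to 0.01, except −0.24 for CTCF in *Trdn-as* KO and WT, where they deviated in opposite directions. Outside that pair, no shared deviation of equal numbers was seen. With the replicate block, 0 factor peaks were called, and calls over all Pol II peaks were 201, 756 and 950 in the order above. For CTCF they were 236, 2 and 376, and 503 for *Trdn-as* KO against WT with the numbers crossed. Uniquely mapped reads were not used to scale CTCF, where the value of 1 read was not recovered.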
